A study of Mus musculus with 22 samples.

Results

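Cerebellar granule neurons that lacked functional Chd7 were compared with control granule neurons on 8 of the 22 microarrays of a mouse series. The members are the 4 arrays labelled Chd7 mutant and the 4 labelled as their control, chosen by those labels alone. Each array measured total RNA, and 10772 genes with 1 symbol per probe set passed the filter on dim signal. The other arrays of the series held wild type neurons given the topoisomerase II inhibitor ICRF-193 at 10 µM for 12 h (n = 4) or its solvent DMSO (n = 4), and cells grown with (n = 3) or without (n = 3) an agent labelled Smo2, where the study's text names a Smoothened agonist.

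Both groups came from the cerebellum of pups at postnatal day 7, of a strain the labels give as C56Bl6/J, and neither group received a treatment. The control genotype is labelled wild type. The text of the study gives the mutant as Atoh1-Cre::Chd7 f/f, with Chd7 f/f as its control, so that both carried the floxed alleles and the Cre was the difference. Atoh1-Cre acts in the granule cell lineage, so other cells of a culture would keep Chd7. Precursors were purified on a Percoll gradient and cultured on Matrigel as postmitotic granule neurons. Sex was not selected.

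CHD7 is an ATP-dependent chromatin remodeler that moves nucleosomes at enhancers and promoters, and loss of 1 copy of its gene causes CHARGE syndrome in humans. Granule neurons arise from Atoh1-expressing precursors of the rhombic lip, which divide under sonic hedgehog in the external granular layer. After leaving the cell cycle they extend parallel fibers, migrate inward and form glutamatergic synapses on Purkinje cells.

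The largest falls in the mutant were of the Y-linked Eif2s3y and Kdm5d, followed by Car3, Bmp5 and Otx1, and the largest rises were of the sarcomere genes Mylpf and Actc1. Promoters of 2 genes lower in the mutant (Bmp5 and the neuronal factor Neurod6) and of 2 sarcomere genes higher in it are shown so that the windows searched for motifs can be read. They are the 250 bases before the annotated start, from RefSeq (GRCm38.p6), written 5′ to 3′. Capitals mark the E-box letters CAGCTG or CAGATG, or CATCTG where the match lies on the opposite strand. E-boxes of this kind are bound by basic helix-loop-helix factors such as those of the NeuroD and MyoD families.
Bmp5 (chr9:75775115-75775364, plus strand) and Neurod6 (chr6:55681264-55681513, minus strand), both lower in the mutant:
Bmp5: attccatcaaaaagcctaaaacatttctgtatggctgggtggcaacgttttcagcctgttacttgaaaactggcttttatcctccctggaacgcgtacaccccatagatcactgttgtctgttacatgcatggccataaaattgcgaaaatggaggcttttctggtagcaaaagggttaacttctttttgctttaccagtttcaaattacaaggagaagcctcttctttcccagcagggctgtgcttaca
Neurod6: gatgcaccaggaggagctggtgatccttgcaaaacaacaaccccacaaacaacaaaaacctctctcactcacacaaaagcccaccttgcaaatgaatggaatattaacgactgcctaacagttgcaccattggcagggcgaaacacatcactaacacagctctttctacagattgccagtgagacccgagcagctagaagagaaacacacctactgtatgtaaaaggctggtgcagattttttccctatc
Mylpf (chr7:127211358-127211607, plus strand) and Acta1 (chr8:123894776-123895025, minus strand), both higher in the mutant:
Mylpf: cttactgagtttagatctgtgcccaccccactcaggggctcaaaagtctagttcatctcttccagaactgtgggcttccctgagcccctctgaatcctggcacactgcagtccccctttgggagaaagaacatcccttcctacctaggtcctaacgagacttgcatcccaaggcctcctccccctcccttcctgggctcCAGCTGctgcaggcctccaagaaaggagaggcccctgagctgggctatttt
Acta1: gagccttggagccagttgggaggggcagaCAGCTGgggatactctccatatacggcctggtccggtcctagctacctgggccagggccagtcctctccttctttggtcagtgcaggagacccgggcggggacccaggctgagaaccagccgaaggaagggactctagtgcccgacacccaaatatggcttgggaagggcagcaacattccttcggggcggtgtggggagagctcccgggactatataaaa
The Bmp5 and Neurod6 windows hold no match and the Mylpf and Acta1 windows hold 1 each. The other windows did not divide in this way, since Actc1, Lcn2, Tesc and Rbms3 held none and BC030500 held 1. Of the largest changes with a window, 4 of 8 rises and 1 of 10 falls held a match. Over the 8769 tested genes with a promoter sequence, 19.3% had a match to CAGCTG or CAGATG on either strand. The share was 22.5% (72 of 320) for genes lower in the mutant and 23.3% (100 of 429) for genes higher in it. A match describes the letters of the window, not a bound site.

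Signals below are on the log2 scale after a floor at a signal of 16, which is 4 on that scale, and values of a group are always in the order of replicates 1 to 4. A change is the mutant mean minus the control mean in log2 units, given ± its standard error (n = 4 per group). A gene was called when its Benjamini-Hochberg adjusted p from limma was under 0.05 over all 10772 genes.

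In both groups replicates 1 and 2 resembled each other, as did replicates 3 and 4, more than replicates 1 and 3 or 2 and 4 did. Each group thus fell into 2 sets. The median absolute difference between 2 arrays was 0.0925 to 0.100 within a set. Between the sets it was 0.142 to 0.144 for control and 0.190 to 0.192 for mutant arrays. The labels do not say what the sets are. Each result was therefore also taken within replicates 1 and 2 and within replicates 3 and 4. The mutant arrays also had less RNA from the Y chromosome. Eif2s3y, a translation factor subunit encoded there, read 9.88, 9.82, 9.47 and 9.54 on the control arrays and 7.29, 7.65, 4.0 and 4.0 on the mutant arrays. Xist, the RNA of the inactive X chromosome, read 12.34, 12.56, 13.41 and 13.39 on the control and 13.55, 13.56, 13.85 and 13.75 on the mutant arrays. Of 373 measured genes of the X chromosome 27 were called lower (7.24%) and 17 higher (4.56%), beside 3.82% and 5.07% of all genes. The labels give no sex, and the part that the sex of the pups had in any result was not tested beyond a fit with the Y-linked signal as a covariate.

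Chd7 was read by 2 probe sets. The dimmer one read 11.33, 11.27, 11.66 and 11.72 on the control arrays and 8.99, 9.02, 9.89 and 9.98 on the mutant arrays. Every mutant array lay below every control array, and the mutant mean was 4.07-fold lower (change -2.03, adjusted p = 0.0180 over all probe sets). Without control replicate 1, 3 or 4 the adjusted p rose to 0.0536, 0.0588 and 0.0575. The brighter probe set read 11.74, 11.84, 11.99 and 12.01 on the control arrays and 11.51, 11.37, 11.86 and 11.85 on the mutant arrays. Its groups overlapped and the pooled change did not pass (-0.25 ± 0.13, adjusted p = 0.454 over all probe sets). In each set both mutant arrays lay below both control arrays. Adjusted over the genes tested, the change was -0.35 in replicates 1 and 2 (adjusted p = 0.0228) and -0.14 in replicates 3 and 4 (adjusted p = 0.225). With the set as a block the brighter probe set was called lower over the genes tested (adjusted p = 0.0317). It did not pass over all probe sets (adjusted p = 0.0775 with the set as a block). The position of the 2 probe sets against the floxed exons was not analysed here. With Chd7 taken at its brighter probe set, none of the 10 measured CHD remodellers was called. At that choice of probe set Chd1l, a related remodeler recruited to DNA damage, had the largest difference of the 10 (0.50 ± 0.14, adjusted p = 0.0618) and, alone among the 10, was called higher once the replicate number entered the fit as a block (then adjusted p = 0.0471).

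Called genes numbered 412 lower in the mutant (3.82% of genes tested) and 546 higher (5.07%). When the mean of each set stood for 1 sample, so that 2 values were compared with 2, limma called no gene (before adjustment 468 were lower and 654 higher by p under 0.05). Over the 8 arrays the counts at an unadjusted p under 0.05 were 1312 and 1500. Of the called genes 43.0% were lower, and centring each array on its median in place of quantile normalization turned this to 58.5% (551 lower and 391 higher). The 2 groups did not overlap for 2115 genes (19.6%), with the mutant lower for 990 (9.19%) and higher for 1125 (10.4%). Leaving out 1 array lowered the counts: 215 lower genes remained called without control replicate 1, 248 without control 2, 242 without control 3 and 257 without control 4. Higher genes fell to 311 without control replicate 1 or 3, to 348 without control 4 and to 355 without mutant 3. With the replicate number as a block, 555 were lower (5.15%) and 856 higher (7.95%).

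**Figure D1:**
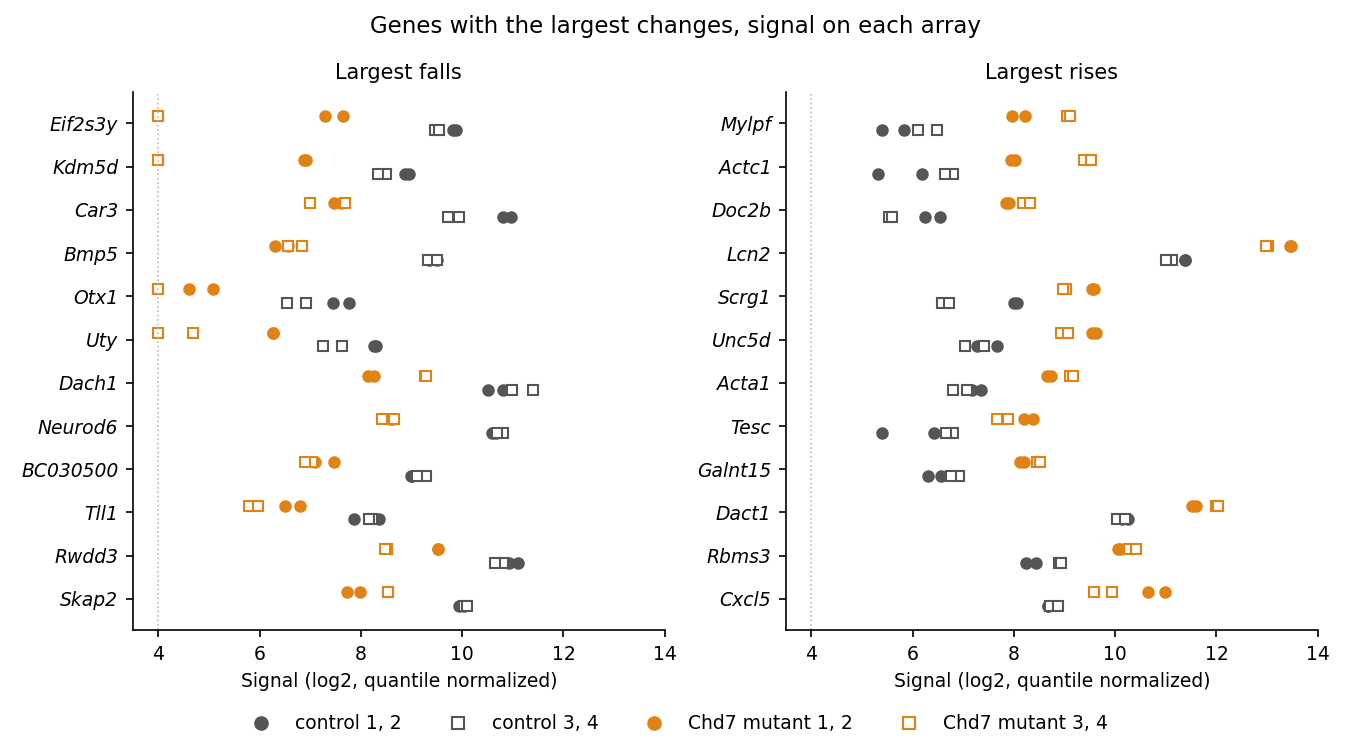
Signal on each of the 8 arrays (log2, horizontal axis) for the 12 genes with the largest falls and the 12 with the largest rises among called genes with separate groups. The dotted line is the floor of 4, where Eif2s3y, Kdm5d and Otx1 sit on mutant replicates 3 and 4, and no gene shown has a mutant array within the control range.

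Bmp5, a secreted bone morphogenetic protein, lies on chromosome 9, 75775365 to 75900316 (GRCm38.p6), and showed a large loss with little spread. It read 9.35, 9.51, 9.34 and 9.50 on the control arrays and 6.30, 6.56, 6.84 and 6.56 on the mutant arrays. All mutant arrays lay at least 2 units below all control arrays, and the change was -2.86 ± 0.11, adjusted p = 2.32e-05. Both Bmp5 probe sets above the filter were called lower, with changes of -3.26 and -2.86. Car3, a cytosolic carbonic anhydrase, read 10.96, 10.80, 9.71 and 9.94 on the control arrays and 7.60, 7.47, 6.99 and 7.68 on the mutant arrays. The control arrays themselves split by set, replicates 1 and 2 being the brighter, but the groups stayed apart (-2.92 ± 0.30, adjusted p = 0.0012). Tll1, a metalloprotease that frees BMPs by cleaving chordin, fell as well (-1.88 ± 0.22, adjusted p = 0.00235). Its change was -1.46 in replicates 1 and 2 and -2.31 in replicates 3 and 4.

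Skap2, an adaptor of Src family kinases, read 10.04, 9.94, 10.04 and 10.10 on the control arrays and 7.73, 7.99, 8.54 and 8.54 on the mutant arrays. The control arrays were nearly level and the mutant arrays lay about 2 units lower in the first set (-1.83 ± 0.18, adjusted p = 0.00111). Rwdd3, which takes part in sumoylation, fell in both sets but further in replicates 3 and 4 (-1.49 and -2.24, overall -1.87 ± 0.27, adjusted p = 0.00542). BC030500, a transcript named only by its clone, read 9.0, 9.01, 9.29 and 9.11 on the control arrays and 7.47, 7.09, 7.04 and 6.90 on the mutant arrays. Its groups lay far apart too (-1.98 ± 0.13, adjusted p = 0.000272). The remaining largest falls were Otx1, Dach1 and Neurod6, described with the transcription factors, and the Y-linked Eif2s3y (-3.94), Kdm5d (-3.22) and Uty (-2.55). For these 3 Y-linked genes and Otx1 some mutant arrays were at the floor, so the changes are lower limits of size. The mutant means of Otx1 (4.42), Eif2s3y (5.74) and Kdm5d (5.45) are under the filter limit of 6.437. Otx1, Eif2s3y and Kdm5d thus passed the filter through arrays where they read higher.

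Lcn2, a secreted lipocalin that binds bacterial siderophores, rose in both sets. It read 11.38, 11.38, 11.12 and 11 on the control arrays and 13.45, 13.48, 13.01 and 12.97 on the mutant arrays. Its mutant arrays were about 2 units higher in each set (2.01 ± 0.15, adjusted p = 0.000478). Unc5d, a netrin receptor, read 7.67, 7.27, 7.42 and 7.04 on the control arrays and 9.54, 9.63, 8.93 and 9.06 on the mutant arrays. Mutant replicates 1 and 2 were the highest of the 8 and all 4 mutant arrays exceeded the controls (1.94 ± 0.19, adjusted p = 0.0011). Dact1, a binding partner and antagonist of Dishevelled in Wnt signaling, rose by 1.63 ± 0.13, adjusted p = 0.00055. Rbms3, an RNA-binding protein, rose by 1.59 ± 0.17, adjusted p = 0.00142. Galnt15, which starts O-linked glycan chains, rose by 1.69 ± 0.15, adjusted p = 0.000812. Tesc, a calcium-binding protein, rose overall (1.71 ± 0.31, adjusted p = 0.0138), and its change was 2.38 in the first set and 1.04 in the second, where the adjusted p was 0.0625. Scrg1, a secreted peptide gene, and the chemokine Cxcl5 rose by 1.94 ± 0.37 and 1.56 ± 0.28 (adjusted p = 0.0173 and adjusted p = 0.0135), with different sizes in the 2 sets.

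Among transcription factors of the granule lineage, 13 of 37 measured were lower and 2 higher, against 3.82% and 5.07% of all genes. The median change of the 37 was -0.18, beside 0.0047 for all genes. Neurod6, a NeuroD family activator of neuronal genes, read 10.68, 10.59, 10.80 and 10.68 on the control arrays and 8.63, 8.57, 8.42 and 8.66 on the mutant arrays. The arrays of a group lay close together and the groups about 2 units apart (-2.11 ± 0.08, adjusted p = 2.04e-05). Dach1, a dachshund family corepressor, read 10.81, 10.51, 11.39 and 10.98 on the control arrays and 8.27, 8.15, 9.27 and 9.29 on the mutant arrays. Second-set arrays were brighter in each group, and the fall was present in each set (-2.18 ± 0.31, adjusted p = 0.00529). Otx1, a homeobox factor of brain patterning, read 7.46, 7.78, 6.55 and 6.92 on the control arrays and 5.09, 4.61, 4.0 and 4.0 on the mutant arrays. Mutant replicates 3 and 4 were at the floor, so that the change of -2.75 ± 0.33, adjusted p = 0.00239 is at least this large.

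Smaller falls were measured for factors that are abundant in granule cells. Pax6, a paired box factor of the lineage, fell by a small amount on every array (13.21, 13.24, 13.30 and 13.32 on the control arrays and 12.74, 12.77, 12.92 and 12.96 on the mutant arrays, change -0.42 ± 0.07, adjusted p = 0.00883). Of its 5 probe sets above the filter the smallest change was -0.17. Zfpm2, a GATA cofactor, changed by -0.44 ± 0.06, adjusted p = 0.00424. Meis1, a homeobox partner, changed by -0.38 ± 0.09, adjusted p = 0.043. Runx1t1, a corepressor that lies near Chd7 on chromosome 4, changed by -0.89 ± 0.12, adjusted p = 0.00424. Eomes, which marks unipolar brush cells, changed by -0.38 ± 0.08, adjusted p = 0.0205, while the other markers of that type did not fall (below). Neurod1, the main NeuroD factor of granule neurons, read 15.06, 15.01, 14.89 and 14.87 on the control arrays and 14.71, 14.87, 14.89 and 14.77 on the mutant arrays. Its groups overlapped, and the difference did not pass (-0.15 ± 0.07, adjusted p = 0.228). The dimmer Neurod1 probe set above the filter read 14.64, 14.56, 14.69 and 14.63 on the control arrays and 14.31, 14.09, 14.10 and 14.16 on the mutant arrays. There the groups were apart and the fall was called (-0.47, adjusted p = 0.0134 over all probe sets), so the 2 probe sets disagree. In bulk cultures like these, fewer cells of a type and less RNA per cell cannot be told apart.

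In the other direction, Myt1l, a zinc finger factor that represses non-neuronal genes in neurons, read 10.38, 10.31, 10.49 and 10.58 on the control arrays and 11.59, 11.59, 11.68 and 11.75 on the mutant arrays. Every mutant array was over 1 unit above every control array (1.21 ± 0.08, adjusted p = 0.000269). En1, a homeobox factor of the midbrain and hindbrain, rose (6.59, 6.06, 6.05 and 6.73 on the control arrays and 7.19, 7.49, 7.61 and 7.55 on the mutant arrays, change 1.10 ± 0.18, adjusted p = 0.00832). The En1 control mean of 6.36 is under the filter limit of 6.437, so the gene passed the filter through arrays where it read higher.

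Of 21 measured markers of granule neuron maturation, 7 were lower (33.3%, beside 3.82% of all genes) and none higher (median -0.24). Nrcam, a neuronal adhesion molecule of axons, read 11.94, 11.95, 12.18 and 12.16 on the control arrays and 11.10, 11.19, 11.57 and 11.56 on the mutant arrays. The second set was brighter in each group and the shift between groups was alike (-0.70 ± 0.13, adjusted p = 0.0135). Nefm, the medium neurofilament subunit, fell by 0.57 ± 0.07, adjusted p = 0.00323. Gap43, a growth cone protein, read 13.76, 13.77, 13.69 and 13.69 on the control arrays and 13.47, 13.50, 13.13 and 13.07 on the mutant arrays. It fell on all mutant arrays, by -0.28 in the first set and -0.59 in the second (-0.44 ± 0.11, adjusted p = 0.0444). Gpm6b, a membrane proteolipid of neurons and glia, changed by -0.43 ± 0.07, adjusted p = 0.00731. Reln, the secreted glycoprotein reelin, read 14.65, 14.69, 14.76 and 14.80 on the control arrays and 14.16, 14.18, 14.53 and 14.51 on the mutant arrays. Its groups did not overlap but it missed the call (-0.38 ± 0.10, adjusted p = 0.0558), and it passed with the replicate block (adjusted p = 0.0312).

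Of 30 measured genes of synaptic vesicle release 10 were lower (33.3%) and 2 higher (6.67%), beside 3.82% and 5.07% of all genes. The higher share was thus near that of all genes, and the list median was -0.26. Cadps2, a priming factor for dense-core vesicles that is abundant in granule cells, read 14.37, 14.39, 14.42 and 14.44 on the control arrays and 13.14, 13.12, 13.51 and 13.55 on the mutant arrays. Control arrays were level and all mutant arrays lay about 1 unit below them (-1.08 ± 0.11, adjusted p = 0.00117). Syt1, the calcium sensor of fast release, read 13.41, 13.42, 13.45 and 13.53 on the control arrays and 12.40, 12.41, 12.57 and 12.55 on the mutant arrays. The arrays of each group lay close together and the change was -0.97 ± 0.06, adjusted p = 0.000275. Rab3a, a small GTPase of vesicle docking, fell by 0.71 ± 0.07, adjusted p = 0.0012, but its other probe set above the filter changed by -0.13 (adjusted p = 0.307 over all probe sets). Vamp2, the vesicle SNARE, fell by 0.40 ± 0.10, adjusted p = 0.0398.

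Doc2b, a high-affinity calcium sensor for spontaneous release, rose against this direction. It read 6.26, 6.54, 5.53 and 5.59 on the control arrays and 7.84, 7.91, 8.18 and 8.32 on the mutant arrays. Control replicates 3 and 4 were the dimmest and mutant replicates 3 and 4 the brightest (2.08 ± 0.24, adjusted p = 0.00191). The Doc2b control mean of 5.98 is under the filter limit of 6.437, so the gene passed the filter through arrays where it read higher. Complexins clamp and trigger SNARE complexes, and the 2 measured members differed. Cplx2 read 10.27, 10.09, 10.33 and 10.20 on the control arrays and 11.58, 11.79, 11.40 and 11.49 on the mutant arrays and rose by 1.34 ± 0.09, adjusted p = 0.000394. Cplx1, its close relative, read 12.78, 12.81, 12.67 and 12.71 on the control arrays and 12.59, 12.57, 12.33 and 12.33 on the mutant arrays and did not pass (-0.29 ± 0.08, adjusted p = 0.0648). With the replicate block Cplx1 was called lower (adjusted p = 0.037).

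Synaptic adhesion molecules and organisers were lower for 13 of 40 measured genes (32.5%) and higher for 3 (7.5%), with a median of -0.22. Over all genes 3.82% were lower and 5.07% higher. Il1rapl1, a postsynaptic organiser on the X chromosome, read 7.84, 8.03, 8.19 and 8.14 on the control arrays and 6.13, 6.44, 6.80 and 6.86 on the mutant arrays. The mutant arrays lay over 1 unit below the control arrays in each set (-1.49 ± 0.16, adjusted p = 0.00162). Il1rap, a related receptor accessory protein that also organises synapses, moved the other way (7.82, 7.69, 7.32 and 7.06 on the control arrays and 8.76, 8.88, 8.49 and 8.39 on the mutant arrays, change 1.16 ± 0.18, adjusted p = 0.00832). Slitrk4, which shares its leucine-rich repeats with Slitrk1, fell by 1.12 ± 0.11, adjusted p = 0.00108. Slitrk1 itself fell by 1.11 ± 0.10, adjusted p = 0.000866. Lrrtm3, a leucine-rich repeat partner of neurexins, fell by 1.05 ± 0.07, adjusted p = 0.000269. None of the 3 had overlapping groups.

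Cadherins and protocadherins, which mediate calcium-dependent adhesion, gave 5 lower (26.3%, beside 3.82% of all genes) and none higher of 19 measured. With the replicate block 7 were lower and 1 higher. Cdh10, a classical type II cadherin, read 11.42, 11.35, 11.66 and 11.56 on the control arrays and 9.51, 9.52, 10.54 and 10.56 on the mutant arrays. Mutant replicates 1 and 2 were about 1 unit below mutant replicates 3 and 4, and the change differed between the sets (-1.87 against -1.06, adjusted p of the difference = 0.012). Cdh7, of the same type, fell by 0.96 ± 0.20, adjusted p = 0.0218. Pcdh11x, on the X chromosome, fell by 1.22 ± 0.24, adjusted p = 0.0186. Pcdh7 and Pcdh9 were lower, with changes of -0.91 ± 0.10 and -0.83 ± 0.09.

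Of the 12 measured glutamate receptor genes 4 were lower (33.3%, beside 3.82% of all genes) and none higher (median -0.35). Gria3, an AMPA receptor subunit, read 10.24, 10.13, 10.30 and 10.43 on the control arrays and 8.89, 8.76, 9.51 and 9.64 on the mutant arrays. The fall was -1.36 in the first set and -0.79 in the second (-1.08 ± 0.20, adjusted p = 0.0154). Gria4, another AMPA subunit, fell by 0.81 ± 0.14, adjusted p = 0.0114. Grik2, a kainate receptor subunit, read 11.30, 11.11, 11.02 and 10.81 on the control arrays and 10.07, 10.10, 10.25 and 10.14 on the mutant arrays and fell by 0.92 ± 0.10, adjusted p = 0.0018. Grik1, its relative, fell by 0.54 ± 0.14, adjusted p = 0.0474. Grm5, a metabotropic receptor, read 10.03, 9.92, 10.56 and 10.59 on the control arrays and 8.26, 8.24, 9.94 and 9.96 on the mutant arrays. Mutant replicates 1 and 2 were far below the rest, the groups of each set were apart, and the pooled change did not pass (-1.18 ± 0.45, adjusted p = 0.142). With the replicate block 7 of the 12 were lower, Grm5 among them (adjusted p = 0.038). GABA receptor genes gave 1 lower of 7 measured (14.3%, beside 3.82% of all genes). It was Gabbr1, a subunit of the metabotropic receptor (-0.30 ± 0.07, adjusted p = 0.033), with 1 higher gene added by the block. No GABA receptor gene was called when arrays were centred on their medians.

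Of 23 potassium channel genes, 5 were lower (21.7%) and 2 higher (8.70%), beside 3.82% and 5.07% of all genes. Kcnj3, an inward rectifier opened by G proteins, read 12.46, 12.37, 12.42 and 12.54 on the control arrays and 11.62, 11.73, 10.75 and 10.69 on the mutant arrays. Mutant replicates 3 and 4 lay about 1 unit below mutant replicates 1 and 2 (-1.25 ± 0.24, adjusted p = 0.0186). Kcnd2, the A-type channel Kv4.2 of granule cells, read 13.68, 13.62, 13.65 and 13.62 on the control arrays and 12.89, 12.96, 12.46 and 12.51 on the mutant arrays. Its control arrays were level and every mutant array was lower (-0.94 ± 0.12, adjusted p = 0.00323). Kcnab1, an auxiliary subunit, fell by 0.88 ± 0.15, adjusted p = 0.0113. Kcna2, a delayed rectifier of axons, rose by 0.65 ± 0.15, adjusted p = 0.0306. Kcnip3, a calcium-binding modulator of Kv4 channels, rose by 0.54 ± 0.11, adjusted p = 0.0218.

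Sodium and calcium channel genes gave 2 lower and 4 higher of 21 measured, with a median of 0.06 that turned to -0.01 when arrays were centred on their medians. Scn2a, the sodium channel of unmyelinated axons, read 10.16, 10.02, 9.68 and 9.88 on the control arrays and 10.97, 11.12, 10.59 and 10.60 on the mutant arrays. All mutant arrays were above all control arrays (0.88 ± 0.15, adjusted p = 0.0113). Its auxiliary subunit Scn2b rose by 0.77 ± 0.09, adjusted p = 0.00253. Scn3a, the embryonic sodium channel, rose by 0.70 ± 0.12, adjusted p = 0.0123. Cacna1g, a T-type calcium channel, rose by 0.69 ± 0.13, adjusted p = 0.014. Cacna1b, the N-type channel of presynaptic terminals, fell by 0.29 ± 0.06, adjusted p = 0.029. Cacna2d1, an auxiliary calcium channel subunit, read 12.41, 12.53, 12.65 and 12.83 on the control arrays and 11.88, 12.01, 12.30 and 12.45 on the mutant arrays, with groups that overlapped, and missed the call (-0.44 ± 0.14, adjusted p = 0.0935) except with the replicate block (adjusted p = 0.0126).

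**Figure D2:**
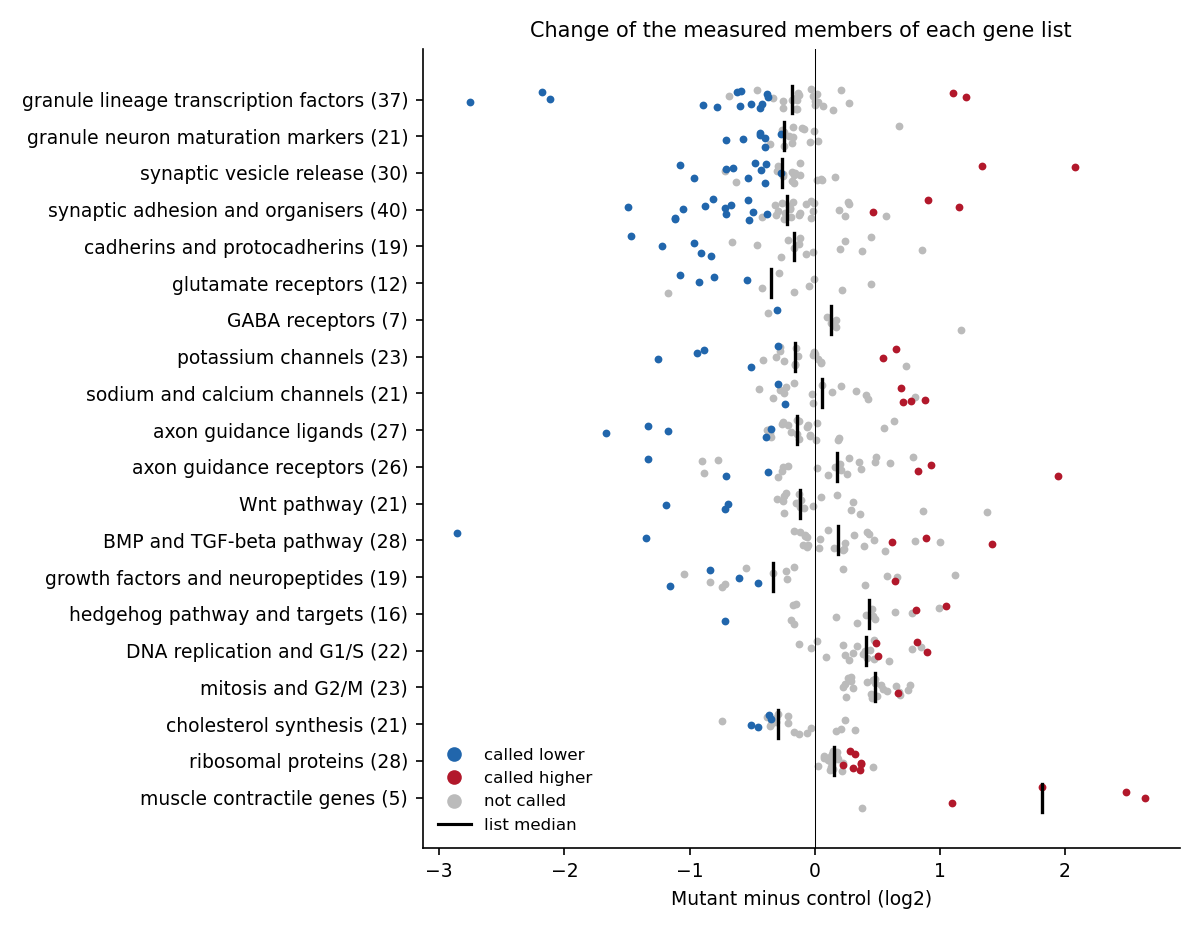
Change (mutant minus control, log2, horizontal axis) of each measured member of each gene list, with the number measured in brackets, the called members in color and the list median marked. Medians of the lists shown run from -0.35 for glutamate receptors to 1.81 for the 5 muscle contractile genes above the filter, and most lists hold called members together with many near 0.

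Axon guidance ligands were lower for 5 of 27 measured (18.5%) and higher for none, beside 3.82% and 5.07% of all genes. Their receptors gave 3 lower and 3 higher of 26 (11.5% each way). Centring arrays on their medians made this 6 lower and 3 higher receptors. With the replicate block 8 ligands were lower and 1 higher, and 5 receptors were lower and 4 higher. Sema3d, a secreted semaphorin, read 11.34, 11.45, 11.83 and 11.80 on the control arrays and 9.55, 9.45, 10.26 and 10.49 on the mutant arrays. Mutant arrays were over 1 unit lower in each set (-1.67 ± 0.25, adjusted p = 0.00604). Efnb2, a transmembrane ephrin, read 10.99, 10.77, 10.64 and 10.65 on the control arrays and 9.27, 9.14, 9.49 and 9.81 on the mutant arrays and fell by 1.33 ± 0.15, adjusted p = 0.00183. Sema3a, a repellent semaphorin, fell by 1.17 ± 0.21, adjusted p = 0.0127. Sema4g and the netrin family member Ntn4 were lower, with changes of -0.39 ± 0.08 and -0.35 ± 0.05.

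On the receptor side, Epha3, an ephrin receptor, read 11.27, 11.22, 11.14 and 11.08 on the control arrays and 10.33, 10.43, 9.21 and 9.40 on the mutant arrays. The mutant arrays of the second set were the lowest by about 1 unit (-1.33 ± 0.27, adjusted p = 0.023). The netrin receptors of the Unc5 family split, since Unc5d rose (above) while Unc5c, the member that guides granule cell migration, read 12.68, 12.66, 12.99 and 12.95 on the control arrays and 11.90, 11.82, 12.36 and 12.36 on the mutant arrays and fell by 0.71 ± 0.15, adjusted p = 0.0267. Nrp1, a coreceptor for class 3 semaphorins, read 8.73, 8.84, 8.77 and 8.72 on the control arrays and 9.58, 9.67, 9.63 and 9.89 on the mutant arrays. All mutant arrays exceeded all controls (0.93 ± 0.08, adjusted p = 0.000709). Plxnd1, a plexin, rose by 0.82 ± 0.07, adjusted p = 0.000813.

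In the BMP and TGF-β pathway 2 of 28 measured genes were lower (7.14%) and 3 higher (10.7%), beside 3.82% and 5.07% of all genes. Besides Bmp5, the ligand, Fstl5, a secreted follistatin-like protein, read 9.68, 9.94, 10.37 and 10.33 on the control arrays and 8.45, 8.59, 8.89 and 8.99 on the mutant arrays. It fell in each set by a similar amount (-1.29 and -1.40, -1.35 ± 0.18, adjusted p = 0.00437). Inhbb, which encodes the βB subunit of activins, read 6.63, 7.12, 7.53 and 7.63 on the control arrays and 8.21, 7.89, 9.22 and 9.25 on the mutant arrays. Second-set arrays were the brighter in each group and the rise was 1.42 ± 0.36, adjusted p = 0.0465. Its second probe set above the filter changed by -0.39 (adjusted p = 0.797 over all probe sets). Fstl1, another follistatin-like protein, rose by 0.89 ± 0.09, adjusted p = 0.00111. Id2, a target of BMP signals that blocks basic helix-loop-helix factors, rose by 0.62 ± 0.09, adjusted p = 0.00505.

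Wnt pathway genes gave 3 lower of 21 measured (14.3%, beside 3.82% of all genes). Lgr5, an R-spondin receptor that young granule neurons also express, read 10.04, 9.85, 9.65 and 9.62 on the control arrays and 8.73, 8.68, 8.49 and 8.50 on the mutant arrays. The groups were about 1 unit apart (-1.19 ± 0.11, adjusted p = 0.000866). Lgr4, its relative, fell by 0.69 ± 0.12, adjusted p = 0.0119. Sfrp1, a secreted Wnt antagonist, fell by 0.72 ± 0.06, adjusted p = 0.000648 at its brightest probe set. Of its 5 probe sets above the filter 2 were called lower and the other 3 changed by 0.15, 0.0074 and -0.18. Wnt5a, a ligand, read 7.36, 6.90, 7.57 and 7.70 on the control arrays and 7.77, 8.27, 9.51 and 9.47 on the mutant arrays and did not pass (1.37 ± 0.40, adjusted p = 0.0726), though it was 1 of 2 genes of the list called higher with the replicate block (adjusted p = 0.0307).

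Among 19 growth factor and neuropeptide genes 4 were lower (21.1%) and 1 higher (5.26%), beside 3.82% and 5.07% of all genes. With the replicate block 3 were higher. Vegfc, a ligand of VEGF receptors, read 11.23, 11.39, 11.59 and 11.54 on the control arrays and 9.73, 10.18, 10.49 and 10.73 on the mutant arrays. It fell on every mutant array (-1.16 ± 0.20, adjusted p = 0.0124). Fgf13, an intracellular FGF homologous factor that binds sodium channels, fell by 0.84 ± 0.08, adjusted p = 0.000866. Nrg3, a neuregulin, fell by 0.60 ± 0.12, adjusted p = 0.0206. Ptn, the heparin-binding growth factor pleiotrophin, fell by 0.45 ± 0.07, adjusted p = 0.00627. Pdgfa, a ligand of the PDGF α receptor, rose by 0.64 ± 0.09, adjusted p = 0.00507.

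Of 16 hedgehog pathway genes and targets, 1 was lower (6.25%) and 2 higher (12.5%), beside 3.82% and 5.07% of all genes. The median of the 16 was 0.44. Ccnd1, the cyclin D1 of cycling precursors, read 7.98, 8.03, 7.95 and 7.89 on the control arrays and 8.85, 8.82, 9.24 and 9.13 on the mutant arrays. The control arrays were level and all mutant arrays were higher (1.05 ± 0.10, adjusted p = 0.0011). Foxm1, a factor of the G2 phase, rose by 0.81 ± 0.11, adjusted p = 0.00485. Ccnd2 and Gli2 did not pass (0.99 ± 0.26, adjusted p = 0.0523 for Ccnd2, 0.78 ± 0.43, adjusted p = 0.292 for Gli2). Ccnd2 read 11.53, 11.48, 12.37 and 12.21 on the control arrays and 12.70, 12.44, 13.28 and 13.13 on the mutant arrays, each mutant array above its control set. With the replicate block 6 of the 16 were higher, Ccnd2 (adjusted p = 0.00321) and Gli2 (adjusted p = 0.00601) among them.

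Genes of DNA replication were higher for 4 of 22 measured (18.2%, median 0.41) and genes of mitosis for 1 of 23 (4.35%, median 0.48), and none was lower. Over all genes 5.07% were higher, so the mitosis count was not above that share. Mcm6, a subunit of the replicative helicase, read 9.63, 9.43, 9.86 and 9.90 on the control arrays and 10.16, 10.48, 10.99 and 10.79 on the mutant arrays. The groups did not overlap (0.90 ± 0.19, adjusted p = 0.0237). Cdk2, Prim1 (a primase subunit) and Cdt1 (a licensing factor) rose by 0.82 ± 0.20, 0.50 ± 0.12 and 0.49 ± 0.10. A second Prim1 probe set above the filter changed by 0.035. Plk1, a mitotic kinase, rose by 0.66 ± 0.16, adjusted p = 0.0398. Top2a, the topoisomerase II of dividing cells, read 9.12, 9.0, 10.14 and 10 on the control arrays and 9.78, 9.67, 10.83 and 10.72 on the mutant arrays. Its second-set arrays were about 1 unit above its first-set arrays in both groups, and the pooled change did not pass (0.68 ± 0.36, adjusted p = 0.279), while with the replicate block it did (adjusted p = 0.00338). With that block 10 replication genes and 12 mitosis genes were higher. Top2b, the topoisomerase II of neurons, read 12.79, 12.64, 12.85 and 12.65 on the control arrays and 12.65, 12.66, 12.80 and 12.72 on the mutant arrays. At this brightest probe set it showed no difference beyond the spread (-0.02 ± 0.07, adjusted p = 0.868). Its 3 probe sets above the filter changed by -0.51 to 0.044, and none was called. Top1 showed no difference beyond the spread either (-0.06 ± 0.06, adjusted p = 0.598).

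Enzymes of cholesterol synthesis were lower for 4 of 21 measured and higher for none (median -0.30). Centring arrays on their medians left 2 lower. Mvd, Nsdhl and Dhcr7, which act at successive stages of the pathway, were lower, with changes of -0.50 ± 0.11, -0.45 ± 0.11 and -0.37 ± 0.07. Hmgcs1, the synthase at its entry, read 14.49, 14.41, 14.56 and 14.48 on the control arrays and 14.29, 14.23, 14.02 and 14 on the mutant arrays. It fell by 0.35 ± 0.08, adjusted p = 0.0358 and missed the call with the replicate block (adjusted p = 0.0554). Ribosomal protein genes were higher for 7 of 28 (25%, beside 5.07% of all genes) and lower for none. The rises were small, among them Rps18 (0.37 ± 0.06, adjusted p = 0.00575) and Rpl22 (0.33 ± 0.05, adjusted p = 0.00761). Centring arrays on their medians gave 1 higher call in place of 7. Rps3 (0.31 ± 0.07) lost its call with the replicate block (adjusted p = 0.0505). None of 28 oxidative phosphorylation genes, 20 stress response genes and 10 housekeeping genes was called. With the replicate block 2 of the stress response genes were lower.

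Carbonic anhydrases hydrate carbon dioxide, and of the 4 measured Car3 and Car10 were lower and Car2 higher. The second Car3 probe set above the filter changed by -1.35 (adjusted p = 0.0756 over all probe sets). Car10, a catalytically inactive member that binds neurexins, fell by 0.61 ± 0.11, adjusted p = 0.0129. Car2, abundant in oligodendrocytes, read 6.62, 6.78, 5.78 and 6.10 on the control arrays and 7.71, 7.95, 7.59 and 7.74 on the mutant arrays and rose by 1.43 ± 0.21, adjusted p = 0.00604. The Car2 control mean of 6.32 is under the filter limit of 6.437, so the gene passed the filter through arrays where it read higher. Heparan sulfate enzymes gave 1 lower, the sulfotransferase Ndst3 (-0.80 ± 0.14, adjusted p = 0.0113), and 1 higher, the sulfatase Sulf2 (1.16 ± 0.29, adjusted p = 0.0423), of 14 measured. Among p53 targets 1 of 22 was lower, Mdm2 (-0.24 ± 0.05, adjusted p = 0.023), and 1 higher, Phlda3 (0.45 ± 0.10, adjusted p = 0.0295). The share was 7.14% each way for the heparan sulfate enzymes and 4.55% each way for the p53 targets. Over all genes it was 3.82% lower and 5.07% higher. With the replicate block 2 heparan sulfate enzymes and 2 p53 targets were higher, and with arrays centred on their medians 2 heparan sulfate enzymes were lower and none higher. Another probe set above the filter changed by -0.18 for Sulf2 and by -0.043 for Mdm2, and neither was called.

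Interferon-inducible genes were higher for 2 (4 with the replicate block) and lower for 2 of 14 measured. The share was 14.3% each way, beside 3.82% lower and 5.07% higher over all genes. Ifitm3, an antiviral membrane protein, read 10.94, 10.76, 10.81 and 10.87 on the control arrays and 12.29, 12.41, 11.82 and 11.77 on the mutant arrays. The mutant arrays of the first set were the highest (1.22 ± 0.15, adjusted p = 0.00266). Ifit2, an antiviral protein of the same response, rose by 1.30 ± 0.26, adjusted p = 0.0217. The Ifit2 control mean of 5.91 is under the filter limit of 6.437, so the gene passed the filter through arrays where it read higher. Mndal and Ifi203, neighbors in a cluster of interferon-inducible genes on chromosome 1, were lower, with changes of -1.06 ± 0.07 and -0.56 ± 0.09. Mndal read 12.64, 12.62, 12.50 and 12.44 on the control arrays and 11.55, 11.41, 11.50 and 11.50 on the mutant arrays, level within each group. The median change of the list was 0.96 in replicates 1 and 2 and 0.05 in replicates 3 and 4. No MHC class I gene of 8 measured was called, with medians of 0.86 and 0.33 in the 2 sets, and 4 were higher with the replicate block.

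Of 29 muscle contractile genes listed 5 passed the filter, and 4 of them were called higher. Mylpf and Actc1 passed it through their mutant arrays, since their control means of 5.95 and 6.23 are under the limit of 6.437, so the count is partly fixed by the filter. Mylpf, the regulatory light chain of fast skeletal myosin, read 5.83, 5.39, 6.49 and 6.10 on the control arrays and 7.97, 8.23, 9.06 and 9.12 on the mutant arrays. The control arrays were near the lower end of the scale and all mutant arrays were over 1 unit higher (2.64 ± 0.32, adjusted p = 0.00255). Actc1, the cardiac α-actin that embryonic muscle also makes, read 6.19, 5.31, 6.79 and 6.63 on the control arrays and 8.03, 7.95, 9.38 and 9.53 on the mutant arrays and rose by 2.49 ± 0.46, adjusted p = 0.0152. Acta1, skeletal α-actin, read 7.36, 7.18, 7.07 and 6.80 on the control arrays and 8.65, 8.73, 9.11 and 9.17 on the mutant arrays and rose by 1.81 ± 0.16, adjusted p = 0.000804. Tnnc1, slow troponin C, read 6.98, 7.09, 7.22 and 7.18 on the control arrays and 8.29, 8.03, 8.34 and 8.20 on the mutant arrays and rose by 1.10 ± 0.09, adjusted p = 0.00055. Tpm2, a tropomyosin, did not pass (0.38 ± 0.10, adjusted p = 0.057).

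Markers of skeletal muscle as a whole list were higher on the mutant arrays. Of the 17 on the array 13 lay below the filter, and the 4 above it are those just described. Their summed linear signal ranged from 914 to 1086 on control arrays and from 2951 to 5076 on mutant arrays. Myog, a MyoD family regulator under the filter and so without a test, read 4.0, 4.0, 5.04 and 4.0 on the control arrays and 6.0, 6.47, 7.06 and 7.10 on the mutant arrays, with no overlap. Myh3, the embryonic myosin heavy chain, read 5.57, 4.0, 5.69 and 6.07 on the control arrays and 8.03, 8.09, 8.72 and 9.18 on the mutant arrays, with no overlap. Myod1 read 4.0, 5.78, 4.21 and 5.49 on the control arrays and 5.54, 5.37, 5.31 and 5.27 on the mutant arrays, and the groups overlapped. Ckm, muscle creatine kinase, read 5.98, 5.80, 6.08 and 4.94 on the control arrays and 5.93, 6.13, 6.01 and 6.0 on the mutant arrays, and the groups overlapped too. Whether muscle cells or granule neurons held these transcripts was not tested. These 4 muscle genes outside the named rule were chosen after their values were seen.

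Other cell types were checked on the same arrays. Granule cell markers (13 on the array) summed to 139780 to 142740 on control and 106710 to 122930 on mutant arrays. Of 12 measured, 3 were lower (25%, beside 3.82% of all genes), Cadps2, Pax6 and Meis1, and the median change was -0.15. A linear sum weights the brightest markers, among them Cadps2 and Reln, which the study names as activated by Chd7. Not every marker fell. Barhl1 read 10.57 to 10.82 on control and 10.81 to 11.04 on mutant arrays, and Cntn2 12.194 to 12.247 and 12.135 to 12.255. Barhl1 and Cntn2 lie outside the named rule and were chosen after their values were seen. Whether the share of granule cells differed was not tested. Markers of fibroblasts, pericytes and meninges (13 on the array) summed to 4553 to 8474 on control and 8876 to 15504 on mutant arrays. Of 11 measured, 3 were higher (27.3%, beside 5.07% of all genes), and 8 with the replicate block. Dcn, the proteoglycan decorin, read 9.79, 9.90, 9.05 and 8.56 on the control arrays and 11.16, 11.20, 10.44 and 10.49 on the mutant arrays and rose by 1.5 ± 0.33, adjusted p = 0.0283. Acta2, smooth muscle actin, rose by 1.06 ± 0.15, adjusted p = 0.00555. Pdgfrb, a pericyte receptor, rose by 0.81 ± 0.18, adjusted p = 0.0295.

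Oligodendrocyte lineage markers (10 on the array) summed to 5875 to 14801 on control and 18112 to 25442 on mutant arrays, without overlap. Of 9 measured, 1 was higher (11.1%, beside 5.07% of all genes), and 8 with the replicate block. The called one was the precursor receptor Pdgfra (9.97, 10.09, 10.53 and 10.54 on the control arrays and 11.02, 10.93, 11.62 and 11.66 on the mutant arrays, change 1.02 ± 0.21, adjusted p = 0.0236). The other Pdgfra probe sets above the filter changed by 0.41 and 0.47 and were not called. Cnp, a myelin enzyme, read 11.42, 11.56, 9.77 and 9.92 on the control arrays and 12.64, 12.56, 11.82 and 11.75 on the mutant arrays and did not pass (1.52 ± 0.46, adjusted p = 0.0772) except with that block (adjusted p = 0.0106). Astrocyte and Bergmann glia markers (13 on the array) summed to 11278 to 22651 on control and 13667 to 42464 on mutant arrays. Of 12 measured, 1 was higher (8.33%), and 6 with the block. The called one was the gap junction gene Gja1 (0.86 ± 0.15, adjusted p = 0.0133, with changes from 0.30 at its other probe sets). Microglia markers (13 on the array) summed to 4673 to 8369 and 2341 to 6432, and none of 7 measured was called (4 lower with the block). The part of these cells in the changes above was not tested. Erythroid markers (5 on the array) were all below the filter. Unipolar brush cell markers (4 on the array) summed to 6705 to 7755 on control and 8770 to 9032 on mutant arrays, without overlap. Eomes was lower, and Calb2 (0.68 ± 0.22, adjusted p = 0.0928) and Otx2 (0.27 ± 0.11, adjusted p = 0.162) were not called, except Otx2 as higher with the replicate block (adjusted p = 0.0482).

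**Figure D3:**
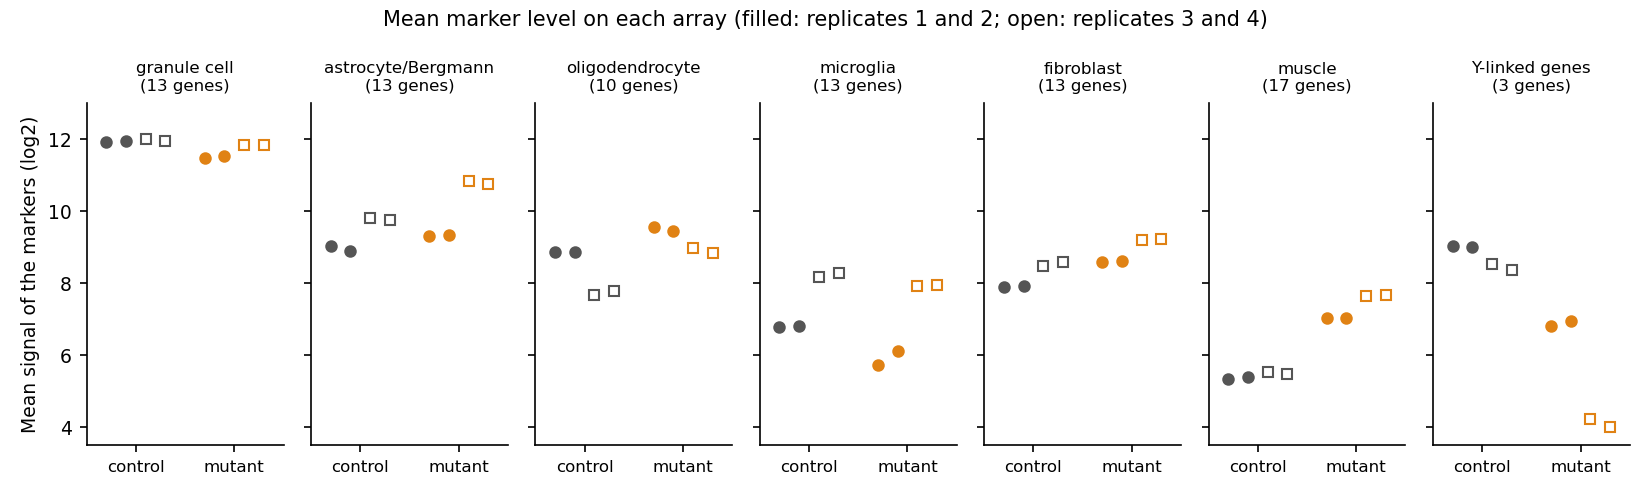
Mean signal (log2, vertical axis) of the markers of each cell type on each of the 8 arrays, with filled points for replicates 1 and 2 and open points for replicates 3 and 4. Skeletal muscle and oligodendrocyte points of the mutant lie above those of the control in the same set, granule cell points lie below, and microglia points separate by set more than by genotype.

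Within replicates 1 and 2, 793 genes were lower in the mutant (7.36%) and 921 higher (8.55%). Within replicates 3 and 4, 808 were lower (7.5%) and 1141 higher (10.6%). The sets shared 328 lower genes (3.04%), which is 41.4% of the first list and 40.6% of the second. They shared 532 higher genes (4.94%), which is 57.8% and 46.6%. For 48 genes (0.446%) the sets were called in opposite directions. The sign was the same in both sets for 67.3% of all genes tested. Of the 412 genes lower over all arrays 260 were called in both sets, and of the 546 higher 346 were. These fits share 1 estimate of the spread within sets.

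The change itself differed between the sets for 282 genes (2.62%). Ttr, the transthyretin carrier made by choroid plexus, differed most and read 11.09, 11.47, 12.05 and 12.27 on the control arrays and 14.49, 14.64, 10.24 and 10.25 on the mutant arrays. It was higher in the mutant in the first set (3.29) and lower in the second (-1.92). Fos, an immediate early gene, read 12.47, 12.55, 11.67 and 11.90 on the control arrays and 12.89, 12.95, 9.41 and 9.51 on the mutant arrays. Mutant replicates 3 and 4 lay over 2 units below every other array. Nr4a3, a nuclear receptor induced by activity, read 10.08, 10.19, 9.21 and 9.87 on the control arrays and 10.80, 10.81, 6.65 and 7.14 on the mutant arrays and followed the same pattern. Of the 12 immediate early genes measured, 5 differed between the sets, 2 were higher over all arrays (16.7%, beside 5.07% of all genes) and none was lower. The 2 were Egr1 (1.29 ± 0.24, adjusted p = 0.0167) and Btg2 (0.43 ± 0.10, adjusted p = 0.0317). Igtp, an interferon-inducible GTPase, read 7.48, 7.72, 7.14 and 6.72 on the control arrays and 12.01, 10.96, 8.10 and 7.68 on the mutant arrays. It was highest on mutant replicates 1 and 2, and Gbp6, a guanylate-binding protein of the same response, read 7.70, 7.47, 8.13 and 7.93 on the control arrays and 10.85, 10.17, 8.12 and 8.37 on the mutant arrays. Both were much lower on mutant replicates 3 and 4.

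**Figure D4:**
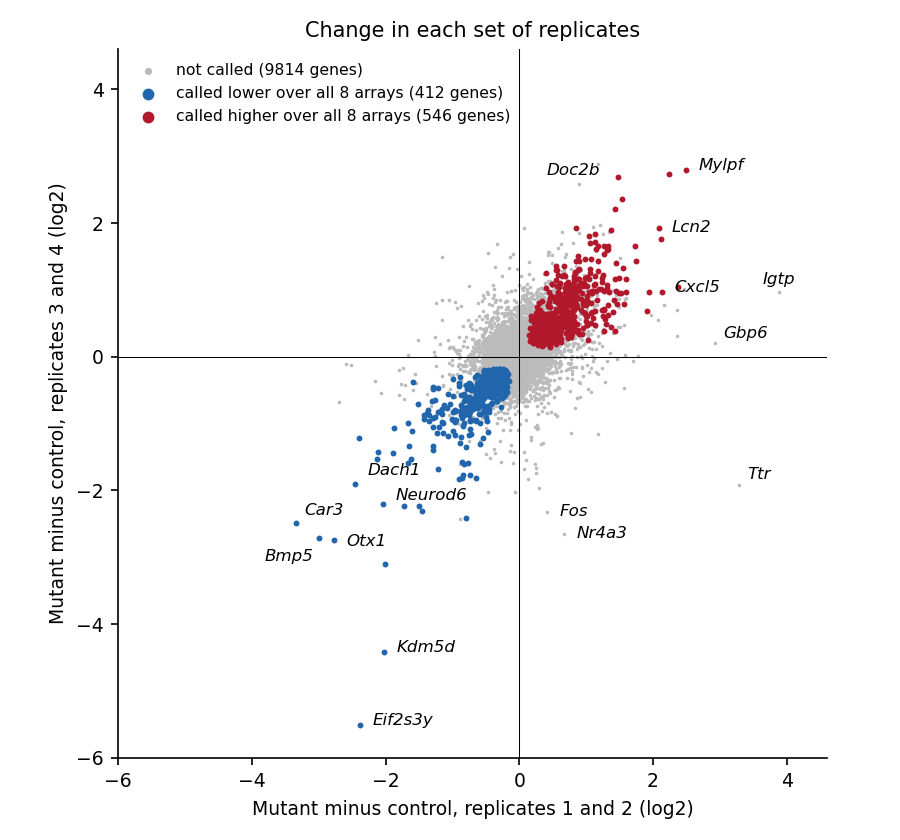
Change of each of the 10772 genes in replicates 1 and 2 (log2, horizontal axis) against that in replicates 3 and 4 (log2, vertical axis). Genes called lower or higher over all arrays are in color. Bmp5 and Neurod6 lie near the diagonal, and Ttr and Fos lie in the quadrants where the 2 changes have opposite signs.

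The study reported that many long genes were lower in Chd7 mutant granule neurons, as with inhibition of topoisomerase II. Gene length was therefore set against the change in the mutant. That report rests on these or related samples, so the values here are no independent evidence. Of the 134 genes over 500 kb, 41 (30.6%) were called lower and 8 (5.97%) higher. In genes up to 10 kb 3.15% were lower, and in the bins between the share was 2.27%, 2.54%, 3.63%, 6.68% and 9.58% as length grew. The median change of genes over 500 kb was -0.22, with -0.16 in the first set and -0.22 in the second. Genes lower in the mutant had a median length of 51.5 kb, beside 25 kb for all genes and 27.0 kb for genes higher in it. Of the lower genes 36.9% exceeded 100 kb, beside 14.7% of all genes. Length had no value for 42 genes (0.39%). Cadps2, Grik2 and Fstl5, named above, each span over 500 kb.

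A score per array, the mean of genes over 100 kb minus the mean of the rest, was 0.109, 0.0734, 0.180 and 0.173 on the control arrays and 0.0485, 0.0538, 0.0904 and 0.0991 on the mutant arrays. Within each set both mutant scores lay below both control scores, and over the sets control replicate 2 lay within the mutant range. The difference of -0.061 had an exact 2-sided permutation p of 0.1143, where 0.0286 is the smallest that 70 arrangements allow. With arrays paired by replicate number all 4 differences were below 0 and the exact p was 0.125, the smallest that 4 pairs allow. Without control replicate 2 the difference was -0.081 (exact p = 0.0286). Without the filter on dim signal it was -0.011 (exact p = 0.657), with a length limit of 50 kb -0.034 and with one of 200 kb -0.088.

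**Figure D5:**
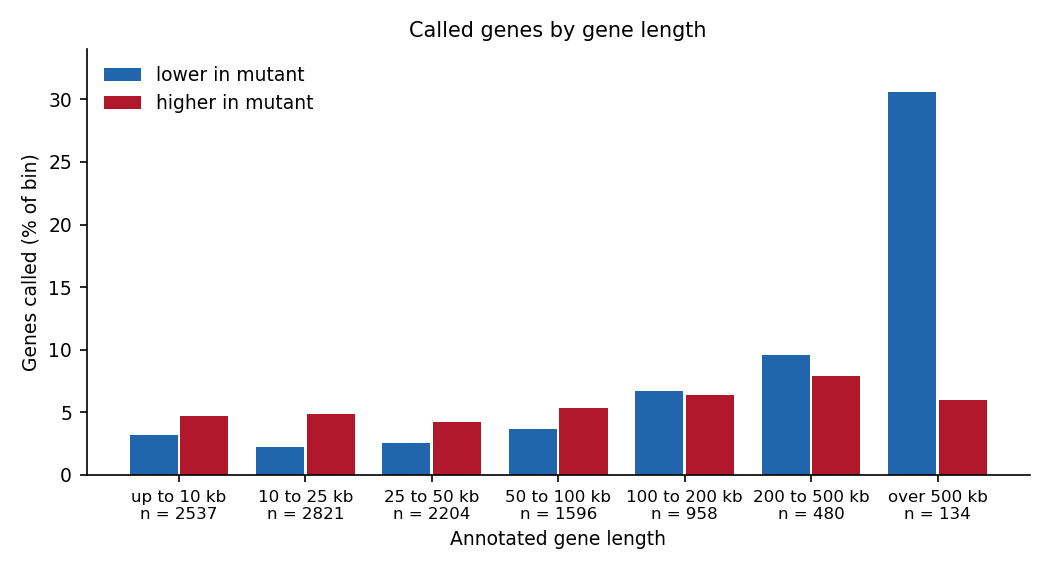
Share of genes called lower or higher in the mutant (percent of the bin, vertical axis) by annotated gene length (horizontal axis, with the number of genes in each bin). The share of lower genes is 30.6% over 500 kb and under 10% in each of the other bins, while the share of higher genes stays between 4.26% and 7.92%.

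The inhibitor arrays gave a comparison with its own controls. With ICRF-193 373 genes were lower (3.46%) and 338 higher (3.14%). Of the 412 genes lower in the mutant 84 were lower with ICRF-193 too, which is 20.4% of the mutant list and 22.5% of the inhibitor list, and 15 were higher. Of the 546 higher, 67 were higher with ICRF-193 (12.3% and 19.8%) and 11 lower. Median length was 224 kb for genes lower with the inhibitor, against 51.5 kb in the mutant. The change in the mutant differed from that with ICRF-193 for 699 genes (6.49%), among them 157 of the 412.

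Side by side, several genes fell in both. Car3 changed by -2.92 in the mutant and by -2.04 (adjusted p = 0.000133) with ICRF-193. Cadps2 changed by -1.08 and -1.36 (adjusted p = 1.24e-05). Fstl5 changed by -1.35 and -1.34 (adjusted p = 0.00208). Others fell much further with the inhibitor. Grik2 changed by -0.92 in the mutant and -2.57 (adjusted p = 2.83e-06) with ICRF-193, and the 2 changes differed (adjusted p = 5.15e-06). Zfpm2 changed by -0.44 and -2.33 (adjusted p = 7.05e-06) (adjusted p of the difference = 1.56e-07). A further group moved in the mutant and not alike with the inhibitor. Neurod6 changed by -2.11 and 0.45 (adjusted p = 0.0409), in opposite directions (adjusted p of the difference = 7.82e-08). Bmp5 changed by -2.86 and -0.59 (adjusted p = 0.0152) (adjusted p of the difference = 1.62e-06). Eomes changed by -0.38 and 0.95 (adjusted p = 0.00104), again in opposite directions (adjusted p of the difference = 2.62e-05). Doc2b rose in both, by 2.08 and 2.47 (adjusted p = 2.83e-06). Chd7 itself, by its brighter probe set, changed by -0.25 in the mutant without passing and by -1.35 (adjusted p = 0.000581) with the inhibitor.

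A Smoothened agonist keeps granule precursors dividing, and the Smo2 arrays have their own controls too. With Smo2 39% of all genes were lower and 29.7% higher. Of the 412 genes lower in the mutant 324 (78.6%, or 7.72% of the Smo2 list) were lower with Smo2 and 25 higher. Of the 546 higher in the mutant 274 (50.2%, or 8.57% of that list) were higher with Smo2 and 136 lower. Ccnd1 was higher in both, by 1.05 in the mutant and 5.73 with Smo2. Unc5d and Myt1l were higher in the mutant and lower with Smo2 (-1.55 and -1.53). Otx1 was lower in the mutant and higher with Smo2 (1.37), and Sfrp1 likewise (2.0).

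The study names 13 genes, of which 12 were measured, and 9 were lower and none higher (median -0.65). That choice was made on these or related samples, so the count is no independent evidence. Besides those above it includes Cnksr3, a scaffold of Ras signaling, which fell by 0.60 ± 0.13, adjusted p = 0.0251. A second list holds genes listed as lower by sequencing of mutant precursors, which are other samples. Of its 101 measured members 53 were lower and none higher, 52 of the list were lower in both sets, and the median was -0.44.

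Near Chd7 on chromosome 4, within 10 Mb, 37 genes were measured. Of these 2 were lower (5.41%) and 1 higher (2.70%), beside 3.82% and 5.07% of all genes. Clvs1, a lipid-binding protein whose gene is its neighbor, read 12.56, 12.44, 12.57 and 12.52 on the control arrays and 12.24, 12.24, 12.28 and 12.27 on the mutant arrays and fell by 0.27 ± 0.05, adjusted p = 0.0206. Its other probe sets above the filter changed by -0.17 and 0.10 and were not called. Runx1t1 was the other lower gene. The higher one was 2610301B20Rik (0.29 ± 0.07, adjusted p = 0.0297), which lost its call with the replicate block (adjusted p = 0.059).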

How the data were processed

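Signal intensity was measured on Affymetrix mouse arrays (biotin-labelled cRNA from total RNA) and deposited by the authors as 1 linear intensity per probe set, scaled to a trimmed mean of 500 on every array. The sources used here do not give the summarisation software. The labels call the arrays biological replicates without tying them to pups or cultures, and p-values measure the spread between these samples.

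Of 45101 probe sets, 34958 had 1 symbol, 932 several and 9211 none. Intensities were floored at 16, taken to log2 and quantile normalized over all 22 arrays. The probe set with the highest mean stood for a gene (of 65 called named genes with another probe set above the filter, 13 had one that changed by under 50% as much or the other way, 4 of them the other way), and the 10772 genes whose mean reached 6.437 were kept. The files hold no counts, so precision rests on the number of arrays. Mutant and control arrays were compared with limma 3.58.1 in R 4.3.3 (lmFit, eBayes, Benjamini-Hochberg adjusted p under 0.05), without a block. Within-set changes and their difference came from 1 fit of group by set. The long gene score was compared by an exact permutation test. The code was tested on simulated data. Python 3.11.15 and matplotlib 3.10.9 drew the figures.

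Replicate numbers come from the labels. Deviations from the group means correlated at 0.392 to 0.420 between arrays of the same number, and at 0.383 to 0.441 between arrays of the other number of the same set, so the numbers pair the samples at least by set. A blocked value (replicate number as a term) stands beside a result where it changed the call or moved a count by over 1.5 times. No 2 of the 22 arrays held identical values.

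The arrays follow the labels, but this comparison and the gene lists were chosen with earlier results of these data known. The lists are therefore described by counts and medians beside those of all genes, without a test. Genes were named by this rule: Chd7, Top1, Top2a and Top2b; the 12 largest changes each way among called genes with separate groups and the same sign in both sets; genes that the study names; from each gene list up to 5 members and from each marker list up to 3, called members first and then by size; the 6 largest differences between sets; called genes within 10 Mb of Chd7; and 2 complexins. Names outside it are marked as chosen after their values were seen, except Xist, which was read beside the Y-linked genes. Alternatives were other scalings, floors, filters, probe set rules, blocks, each set alone, set means, a trend with robust variances, the methods' t-test, a stricter threshold, the mean Y-linked signal as a covariate, and leaving out each array.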

Additional observations from a re-analysis of the deposited data

Results flagged for a closer look

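For 25 of 203 named genes the mutant effect differed between replicates 1 and 2 and replicates 3 and 4 by the test of the difference (limma, adjusted p under 0.05). The values below are the change in replicates 3 and 4 minus that in replicates 1 and 2 on the log2 scale. Ttr, the transthyretin gene of the choroid plexus, gave -5.205. The activity-induced nuclear receptor genes Nr4a3 and Nr4a2 gave -3.317 and -1.55, and the immediate early gene Fos -2.738. The interferon-inducible GTPase genes Igtp and Gbp6 gave -2.923 and -2.71, and B2m, the light chain of MHC class I, -0.8812. The Y-linked Eif2s3y gave -3.13 and Kdm5d -2.401, and mutant replicates 3 and 4 were at the floor for both. Of the genes called higher over all arrays, Cxcl5 rose less in the second set (-1.165), and Doc2b and Scrg1 rose further there (1.214 and 0.8187). Of the genes called lower, Rwdd3 (-0.7466), Kcnj3 (-1.021) and Epha3 (-0.9465) fell further in the second set and Cdh10 (0.8056) fell less.

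Several genes that were not called over all arrays differed as well. Grm5, the metabotropic glutamate receptor, gave 1.095 and Cdkn1a, an inhibitor of cyclin-dependent kinases, gave -1.38. The sulfotransferase gene Hs3st1 gave -0.8623 and Phgdh, of serine synthesis, 0.987. Cell type markers among them were Calb2 (0.6922), Cnp (0.8339), the microglial receptor gene Csf1r (1.352), the endothelial Esam (-1.29) and Slc32a1, the vesicular GABA transporter (1.062). What separates the sets was not tested.

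In 8 of 406 groups of 4 arrays 1 array lay apart from the other 3 by Dixon's test, which chance passes in about 1 group of 20. On mutant arrays these were 2610301B20Rik in replicate 3 (9.283), Chd1l in replicate 1 (7.514), Pdgfrb in replicate 2 (8.528), Scn3a in replicate 4 (8.588) and Top1mt in replicate 4 (7.496). On control arrays they were Hspa5 in replicate 4 (12.53), Phlda3 in replicate 2 (7.826) and Tapbp in replicate 3 (9.516).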

How the results depend on the processing

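The number of called genes depended on how the sets were treated. With the replicate number as a block, which pairs the arrays, 555 genes were lower and 856 higher, against 412 and 546 without it. With the set as a block the counts were 1010 and 1354. Replicates 1 and 2 alone gave 481 and 638, and replicates 3 and 4 alone 569 and 934. When the mean of each set stood for 1 sample, limma called 0 genes lower and 0 higher, with 468 and 654 at an unadjusted p under 0.05, and again 0 and 0 with the set as a block (791 and 1191 unadjusted). At an adjusted p under 0.01 the counts were 138 and 175. With the mean Y-linked signal as a covariate they were 856 and 982, but only 192 of the 412 lower and 238 of the 546 higher genes were among them. The mean Y-linked signal was 8.38 to 9.03 on control and 4.0 to 6.95 on mutant arrays. It thus follows genotype, and this fit cannot tell the 2 apart. The methods' t-test gave 1295 and 1439 at its unadjusted threshold and 388 and 434 after Benjamini-Hochberg adjustment. Leaving out 1 array gave 215 to 320 lower genes and 311 to 400 higher genes. Genes lower in both sets numbered 536 after centring on medians and 496 with a trend and robust variances, against 328, and the last setting called 644 set differences, against 282.

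The Chd7 dimmer probe set changed by -2.20 to -1.87 over the fits that left out 1 array. The Chd7 brighter probe set changed by -0.32 to -0.15 over them, and by -0.77 (adjusted p = 0.0203) with the Y-linked covariate. The long gene score ranged from -0.081 to -0.046 over them, and was -0.011 without the filter on dim signal. The cause of these shifts was not tested.

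Of 5218 values of named genes under these settings, 4295 (82.3%) kept their direction and side of the threshold, 709 (13.6%) lost the call and 203 (3.89%) gained it. Direction turned for 11 (0.211%). In replicates 1 and 2 alone Fos was 0.41 and Nr4a3 0.67, and in replicates 3 and 4 alone Gad2 was 0.46 and Ttr -1.92. With the Y-linked covariate Cdkn1a was 1.76, Fos 3.07, Gap43 0.022, Inhbb -0.085, Nr4a2 1.18, Nr4a3 3.48 and Phgdh -0.79. The replicate block changed no other call of a gene named in the report than those given there. Centring on medians also gave 4 lower sodium and calcium channel genes in place of 2, 2 lower hedgehog genes in place of 1, 1 higher potassium channel gene in place of 2 and 1 higher immediate early gene in place of 2. The number of arrays and the floor at 16 limit what dim genes can show.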
